A study of Mus musculus with 4 samples.

Results

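Chemokine-low microglia of the mouse hippocampus are the microglia left once the cells with the highest share of Ccl3 and Ccl4 transcripts are set aside. They were chosen by measured counts of unique molecular identifiers (UMIs), each of which tags 1 captured RNA molecule. A barcode entered with at least 200 detected genes, at least 1500 UMIs, at least 5 UMIs summed over the microglia genes P2ry12, Cx3cr1, Tmem119 and Gpr34, and at most 2 UMIs summed over Mog, Pdgfra, Gja1, Cldn5, Snap25 and Mrc1, which mark other brain cells. The 4 libraries were pooled, and cells below the 75th percentile of Ccl3 plus Ccl4 UMIs over all UMIs of the cell were kept. The rule gave 1455 chemokine-low cells, out of 1940 cells that passed the microglia gate and 6281 barcodes with at least 200 genes. The other 485 gated cells, at or above that percentile, are called chemokine-high.

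Single-cell RNA was measured in dissociated hippocampus of 2 wild-type (WT) and 2 Dp(10)2Yey mice, 1 library per mouse. The labels, which write Dp2Yey, put both genotypes on a C57BL/6J background. The study describes the mice as male, 3 months old and littermates. Dp(10)2Yey mice carry a duplication of the stretch of mouse chromosome 10 that is homologous to part of human chromosome 21, so its genes are present in 3 copies and not 2; the duplication models a part of the trisomy of Down syndrome and leaves the other homologous stretches at the usual copy number. Cells were prepared on different days, each day with a mouse of each genotype; how replicate numbers map to days was not given.

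Microglia are the resident macrophages of the brain. They survey the tissue through purinergic and chemokine receptors, take up and degrade debris in lysosomes and secrete complement. CCL3 and CCL4 are chemokines that draw leukocytes, and microglia transcribe their genes within hours of stimulation or handling through NF-kB and related pathways. Enzymatic dissociation of brain tissue is known to induce immediate early genes in microglia.

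In the deposited files WT replicate 1 held 1039 barcodes with 3002546 UMIs, WT replicate 2 held 1708 with 6848466, Dp(10)2Yey replicate 1 held 1372 with 5112759 and Dp(10)2Yey replicate 2 held 2345 with 9612011. Where 4 values follow each other below, they are in this order. Chemokine-low cells numbered 211, 374, 283 and 587, with 828426, 1637085, 1302972 and 2634938 UMIs in their sums. A chemokine-low cell had a median of 3739, 4211, 4365 and 4165 UMIs. The median number of genes per cell was 1563, 1662.5, 1703 and 1672, and the median share of mitochondrial UMIs was 2.44%, 2.84%, 2.61% and 1.81%. The Dp(10)2Yey mean minus the WT mean of these medians was 290 UMIs, 74.75 genes and -0.435 percentage points, with exact two-sided permutation p = 0.667, 0.333 and 0.667 (n = 2 and 2). In a design of 2 against 2 libraries the smallest exact p is 0.333. Of all barcodes, 8 sequences occurred in more than 1 library, and 2 chemokine-low cells carried such a barcode.

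The threshold lay at 0.724% of a cell's UMIs. The highest chemokine share inside it was 0.723% and the fifth highest 0.720%, while the lowest outside was 0.727% and the fifth lowest 0.734%. Within 10% of the threshold stood 65 cells, 39 chemokine-low and 26 chemokine-high, so the split runs through a continuous range of values that extends to 9.33%. Of the chemokine-low cells, 12 held exactly 5 UMIs of the microglia genes, and 19 cells stayed outside the gate with exactly 4. On the side of the excluded genes, 17 chemokine-low cells held exactly 2 UMIs and 8 cells stayed outside with exactly 3. In all, 94.0% of the chemokine-low cells held 0 UMIs of the 6 excluded genes, and the median sum of the 4 microglia genes was 41 UMIs. Scrublet, which scores barcodes against simulated cell pairs, called 54 barcodes as doublets (0.860% of 6281); 5 of them were chemokine-low and were kept.

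Within the gate the chemokine-low share was 76.4%, 72.8%, 76.7% and 75.2%, with exact Clopper-Pearson 95% intervals of 71.0% to 81.3%, 68.7% to 76.6%, 72.0% to 80.9% and 72.0% to 78.2%. Pooling fixes the share over all cells at 75%, but not its division between genotypes. Duplication carriers had a mean of 75.9% ± 1.08 and WT mice 74.6% ± 2.61 (SD, n = 2 each), a difference of 1.32 percentage points with exact two-sided permutation p = 0.667. Without WT replicate 2 the difference was -0.522. As a share of all cells with at least 200 genes, chemokine-low microglia made up 20.6%, 22.2%, 20.9% and 26.5%.

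**Figure D1:**
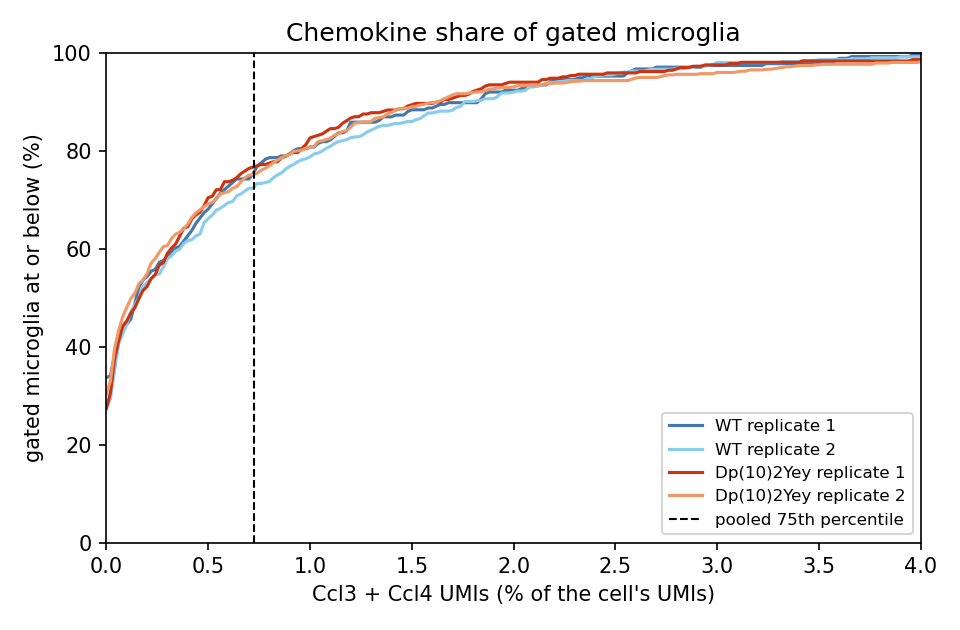
Cumulative share of gated microglia (vertical axis, %) at or below a given share of Ccl3 plus Ccl4 UMIs (horizontal axis, % of the cell's UMIs; the axis stops at 4, and the highest cell reached 9.33%). Each line is 1 library and the dashed line is the pooled 75th percentile, 0.724%; the 4 lines cross it between 72.8% and 76.7%.

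Levels are given as CPM, the UMIs of a gene per 1000000 UMIs summed over all cells of a class in a library, and a class mean is the mean of the 4 libraries. In chemokine-low cells the rule's own genes stood at 2318 CPM for P2ry12, an ADP receptor, 4417 for Cx3cr1, the fractalkine receptor, 1068 for the surface protein gene Tmem119 and 1722 for Gpr34, a lysophospholipid receptor. In other cells, the 2549 cells with at least 1500 UMIs and at most 2 UMIs of those 4 genes, the same genes stood at 4.04, 4.59, 1.44 and 3.07 CPM. In chemokine-low cells the excluded genes Mog, Pdgfra, Gja1, Cldn5, Snap25 and Mrc1 stood at 0.99, 0.48, 2.71, 0.93, 8.85 and 2.01 CPM. Ccl3 stood at 470 CPM in chemokine-low and 4166 CPM in chemokine-high cells, and Ccl4 at 1126 and 13610 CPM. Since the rule chose the cells on these 12 genes, their levels describe the choice and support nothing further.

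The microglia label was checked with markers the rule did not use. Csf1r, the receptor for the survival factors CSF1 and IL-34, stood at 2874, 2432, 2797 and 2354 CPM in chemokine-low cells and at a mean of 18.5 CPM in other cells. The sialic acid receptor gene Siglech stood at 1254 against 4.012 CPM, and Sall1, a transcription factor that maintains microglial identity, at 272 against 22.7 CPM (class means). For shares of cells, each cell was thinned at random to 1500 UMIs so that depth was equal, and Mog-positive cells (866 oligodendrocyte-like cells) served as the background of free RNA. At that depth C1qa was detected in 99.9% of chemokine-low and 1.96% of Mog-positive cells, Csf1r in 96.6% and 0.808%, and Sall1 in 32.6% and 3.58%. The median depth before thinning was 4154 UMIs in chemokine-low and 5200.5 UMIs in Mog-positive cells. Each of these shares lay far above its background, and the label fits the markers.

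Of the markers of other cells, the list of red blood cells was not low, at a mean of 2498 CPM in chemokine-low, 53.4 CPM in chemokine-high and 9434 CPM in other cells. The list of ependyma and choroid plexus reached 531 CPM in WT replicate 2, where 1 cell held 843 of 848 Ttr UMIs. The 10 oligodendrocyte markers summed to a mean of 296 CPM, the most abundant being Mbp, against 25843 CPM in other cells. The 10 astrocyte markers summed to 283 against 6329 CPM, and the 10 neuron markers to 42.9 against 1096 CPM. The 10 markers of border macrophages, the macrophages of meninges and vessels, summed to 96.1 CPM, and to 12078 CPM in the 44 cells with at least 3 Mrc1 UMIs. That list holds Mrc1, which the rule limits and which chose the 44 cells, so the contrast is partly set by the choice. Endothelial markers summed to between 311.6 and 362 CPM by library, mostly Bsg, a gene that is not restricted to vessels. Precursor markers of oligodendrocytes summed to between 9.49 and 16.9 CPM. The neutrophil and monocyte list summed to 3.62, 4.28, 56.0 and 7.97 CPM with 7 of 10 genes at 0. A lone cell of Dp(10)2Yey replicate 1, which the rule kept, held 67 UMIs of that list, with the library's 46 Plac8 and 18 Ly6c2 UMIs, genes of monocytes. The T and NK cell list summed to at most 5.31 CPM with 4 of 10 at 0. S100a8 and S100a9, which define neutrophils, had 0 UMIs in the 1455 cells, which allows up to 0.253% of cells with a captured UMI (exact 95% limit) and does not bound the cells that express these genes.

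The genes with the largest part of the UMIs, leaving out mitochondrial and ribosomal protein genes and Malat1, included genes of secretion, phagocytosis and the immediate early response. Cst3, the secreted protease inhibitor cystatin C, took 62502, 56543, 64648 and 62164 CPM. The complement genes C1qa, C1qb and C1qc, which together encode the recognition protein C1q, took 7306, 6239 and 5307 CPM, and the lysosomal protease gene Ctss 5432 CPM. The actin-binding Tmsb4x stood at 16261, Actb at 9107 and the histone gene H3f3b at 7240 CPM. The immediate early genes Jun, Fos, Junb and Egr1 stood at 6992, 5242, 5123 and 4338 CPM. Gm42418, a gene model that lies over ribosomal RNA repeats, stood at 11234 CPM, so its reads cannot be assigned to it with certainty.

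Against other cells, the genes highest in chemokine-low microglia outside the rule included Ctss, Selplg, C1qa, Csf1r, Trem2, C1qc, Siglech, C1qb and Ly86, with median within-library log2 ratios of 6.81 down to 6.29 (10 CPM added to each value). For Ctss that is a ratio of 112.6, with 6.49 to 7.31 on the log2 scale over the 4 libraries. The genes lowest against other cells included Ptgds, Mal, Apod, Car2, Cryab, Aplp1, Ttr, Cldn11 and Ptn, most of them genes of myelin or glia. Mal, a gene of myelinating cells, stood at 8.67 CPM against 2757 CPM (median log2 ratio -7.33). Ttr, the transthyretin gene of the choroid plexus, had ratios from -7.37 to -1.63, and in WT replicate 2 a lone chemokine-low cell held 843 of the 848 Ttr UMIs. No test was made here, since the rule had picked the cells on UMIs of the same libraries.

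**Figure D2:**
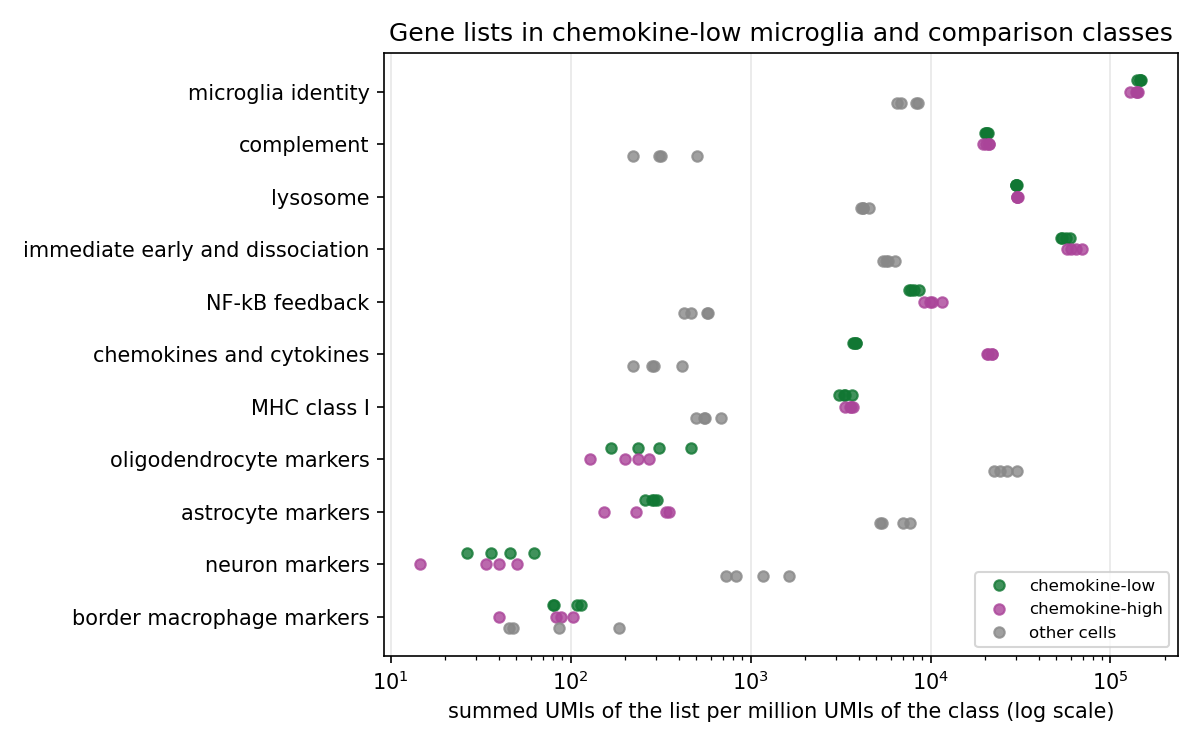
Summed CPM of 11 gene lists (horizontal axis, log scale) in chemokine-low microglia, chemokine-high microglia and other cells; each point is 1 library. Chemokine-low and chemokine-high cells overlap in complement and lysosome genes and stand apart in chemokines and cytokines, the list that holds the genes of the rule (means of 3797 and 21368 CPM).

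The 56 genes of the microglia identity list, 4 of them genes of the rule, summed to a mean of 145340 CPM in chemokine-low and 137860 CPM in chemokine-high cells, the complement list to 20506 and 20538 CPM, and the lysosome list to 29981 and 30358 CPM. The list of genes raised in disease-associated microglia summed to 21376 and 23842 CPM, lower in chemokine-low cells in each library. NF-kB feedback genes, such as the inhibitor gene Nfkbia, summed to 8039 and 10213 CPM, and immediate early genes to 55658 and 62853 CPM, both lower in chemokine-low cells in each library. MHC class I genes, which present peptides to T cells, summed to 3353 and 3569 CPM. Interferon-induced genes differed by library: they summed to 660, 520, 552 and 510 CPM in chemokine-low and to 599, 1107, 504 and 933 CPM in chemokine-high cells, lower in chemokine-low cells in replicate 2 of each genotype and slightly higher in replicate 1 of each. Of 2883 genes with at least 50 CPM in a class, outside the rule, 0 were at least 2-fold higher and 0 at least 2-fold lower in all 4 libraries. Counting the sign alone, a count added after those values were seen, 436 were higher and 222 lower in chemokine-low cells in all 4 libraries. These counts are descriptions without a test. The UMI totals include Ccl3 and Ccl4, so the rule itself lowers the CPM of other genes in chemokine-high cells. How far this shifts the counts by sign was not tested.

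The genes lowest in chemokine-low relative to chemokine-high cells were Csf1, Tnf, Id2, Egr3, Lpl, Ccl2, Rcan1, Sdc4, Dusp2 and Slfn2. Csf1, which encodes a growth factor for macrophages, stood at 78.5, 67.2, 130 and 50.9 CPM in chemokine-low cells and at 259, 263, 217 and 167 CPM in chemokine-high cells. Every chemokine-low value lay below every chemokine-high value, with a median log2 ratio of -1.57 and a range of -1.82 to -0.69. Tnf, the gene of the cytokine TNF, stood at 177, 210, 198 and 260 CPM against 628, 541, 381 and 608 CPM (median log2 ratio -1.26). Id2, an inhibitor of helix-loop-helix transcription factors, had a median log2 ratio of -1.12, Egr3, an immediate early gene, -1.11, and the monocyte chemokine gene Ccl2 -1.01. Lpl, the lipoprotein lipase gene, had a median of -1.03 but ratios from -3.62 to -0.04, and in WT replicate 2 a lone chemokine-high cell held 191 of 203 Lpl UMIs. Other cytokine genes moved the same way with smaller ratios: Il1a stood at 566 against 864 CPM (median log2 ratio -0.51) and Il1b at 65.5 against 150 CPM (-0.78). With cells thinned to 1500 UMIs, Tnf was detected in 19.0% of chemokine-low, 33.0% of chemokine-high and 0% of 866 Mog-positive cells, which allows up to 0.425% (exact 95% limit). Il1a was detected in 37.8%, 51.1% and 0.231%, so Tnf and Il1a stood above the background of free RNA in chemokine-low cells. Csf1 stood at 81.9 CPM in Mog-positive cells and at a mean of 81.7 CPM in chemokine-low cells. Transcripts of the Mog-positive cells themselves and free RNA were not told apart for it.

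The genes highest in chemokine-low relative to chemokine-high cells were 2 globin genes and 8 genes with small ratios. Hba-a2 and Hbb-bt had median log2 ratios of 3.97 and 2.72 with wide ranges, 0.68 to 5.29 and 0.31 to 6.01. Globin UMIs sat in few cells: 1 cell held 8834 of the 8926 in WT replicate 2, another 2109 of 2700 in Dp(10)2Yey replicate 1 and another 4707 of 6377 in Dp(10)2Yey replicate 2. WT replicate 1 had 25 globin UMIs in all. The others were Tmem11, Enc1, Ogt, Chmp3, Slc44a2, Etnk1, Chd9 and Rbm33, with medians between 0.68 and 0.49. Rule genes of microglia also stood slightly higher in chemokine-low cells, P2ry12 by a median log2 ratio of 0.33, but the rule used that gene.

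**Figure D3:**
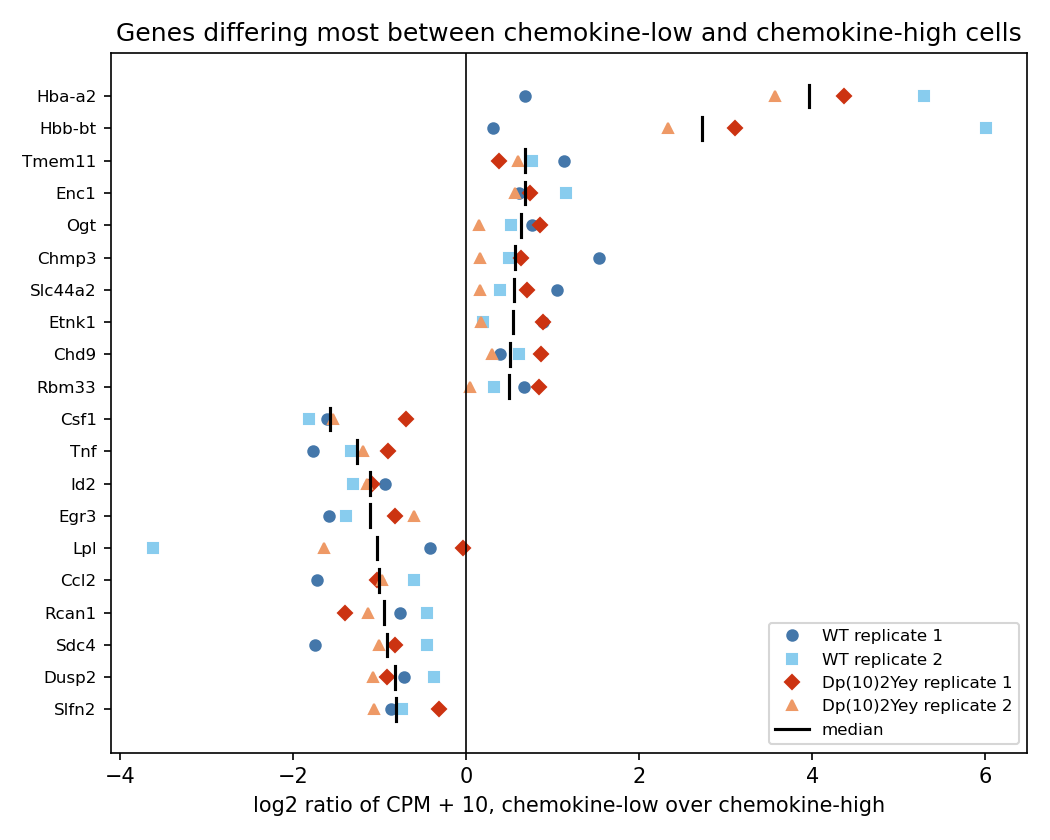
Log2 ratio of CPM (10 added), chemokine-low over chemokine-high, for the 10 genes highest and the 10 lowest in chemokine-low cells outside the rule (horizontal axis). Each point is 1 library and the bar is the median; Csf1, Tnf and Id2 lie below -0.69 in all 4 libraries, while the globin genes Hba-a2 and Hbb-bt and Lpl spread widely.

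Promoter sequences of RefSeq (GRCm38.p6, 250 bases before to 50 after the gene start, 300 bases in all) were read for the rule chemokine Ccl3, for Csf1, the gene lowest relative to chemokine-high cells, and for Ctss, the lysosomal gene high against other cells. Capitals mark a match, on either strand, to NF-kB (GGGA, any base, then TTTCC), AP-1 (TGANTCA) or PU.1 (GAGGAAGT), factors known in microglia. The sequences lie at chr11:83649329-83649628 (minus strand), chr3:107760420-107760719 (minus strand) and chr3:95526536-95526835 (plus strand), each written 5′ to 3′.
Ccl3: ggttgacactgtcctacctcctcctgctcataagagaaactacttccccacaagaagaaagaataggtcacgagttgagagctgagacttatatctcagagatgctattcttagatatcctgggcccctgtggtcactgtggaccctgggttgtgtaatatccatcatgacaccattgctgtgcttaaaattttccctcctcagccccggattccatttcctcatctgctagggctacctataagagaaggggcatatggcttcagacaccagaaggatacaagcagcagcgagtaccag
Csf1: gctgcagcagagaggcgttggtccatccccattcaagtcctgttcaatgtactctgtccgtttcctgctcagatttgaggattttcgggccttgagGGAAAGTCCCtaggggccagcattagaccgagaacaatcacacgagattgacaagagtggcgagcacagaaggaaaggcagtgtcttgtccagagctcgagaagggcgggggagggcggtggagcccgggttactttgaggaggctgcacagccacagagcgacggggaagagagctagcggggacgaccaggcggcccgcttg
Ctss: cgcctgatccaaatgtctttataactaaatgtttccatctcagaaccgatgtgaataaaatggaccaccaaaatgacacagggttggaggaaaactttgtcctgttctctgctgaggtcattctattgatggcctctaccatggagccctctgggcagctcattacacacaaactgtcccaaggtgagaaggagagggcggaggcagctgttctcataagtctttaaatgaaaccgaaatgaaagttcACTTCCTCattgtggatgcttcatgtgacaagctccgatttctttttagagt

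The Csf1 promoter held the NF-kB letters from base 97 and the Ctss promoter the PU.1 letters from base 249, each as the reverse complement, and none of the 3 motifs overlapped another there. The Ccl3 promoter held none of the 3 in this window. Csf1 and Ctss were picked for display because they hold a match, and the 3 motifs were kept from 9 searched, after the matches were seen. Of the 10 genes lowest against chemokine-high cells, 7 had a promoter entry; the NF-kB letters were in 1 of these (Csf1), AP-1 in 1 (Rcan1) and PU.1 in 0. Of the 10 genes highest against other cells, 6 had an entry, with PU.1 in 2 (C1qc and Ctss), AP-1 in 1 (Trem2) and NF-kB in 0. Among all 32851 promoters of the table, NF-kB was in 0.411%, AP-1 in 7.81% and PU.1 in 3.20%. The other 6 motifs searched were a shorter NF-kB form (GGGNNTTCC, in 5.82% of all promoters), the cyclic AMP response element (TGACGTCA, 1.79%), its core (TGACGT, 7.51%), a pattern of CC and GG with 6 bases between, as in serum response elements (73.3%), an EGR motif (GCGTGGGCG, 0.612%) and a C/EBP motif (TTGCNNAA, 10.8%). In the same order they were in 2, 1, 1, 6, 0 and 1 of the 7 promoters and in 0, 0, 0, 5, 0 and 2 of the 6. A match describes letters in this window and is neither a bound site nor a cause.

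Within the chemokine-low class, 572 cells (39.3%) held 0 UMIs of Ccl3 and Ccl4, and 883 held at least 1. By library the share without either was 44.1%, 37.7%, 35.7% and 40.4%. The cells without them had a lower median depth, 3734.5 UMIs against 4434 UMIs, and chemokine-high cells had 4283 UMIs; how far depth accounts for the zeros was not tested. Of 5 genes outside the rule, chosen after their values were seen, each had its lowest mean in the first group and its highest in chemokine-high cells. Tnf stood at a mean of 157 CPM in cells without Ccl3 and Ccl4 UMIs, 243 CPM in the other chemokine-low cells and 540 CPM in chemokine-high cells. Csf1 stood at 51.2, 97.6 and 226.5 CPM, Id2 at 123, 227 and 424 CPM, Il1b at 38.3, 80.8 and 150 CPM, and Cd83, a surface protein gene of activated myeloid cells, at 549, 757 and 1054 CPM. The first step had the same sign in all 4 libraries for each of Tnf, Csf1, Id2, Il1b and Cd83. Since the groups were set by Ccl3 and Ccl4 UMIs and the genes chosen with their values in view, this is a description without a test. Not every chemokine gene followed this order: in WT replicate 1 Ccl5 stood at 33.8 CPM in chemokine-low and 0 CPM in chemokine-high cells, with 27 of its 28 UMIs in 1 cell.

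The immediate early and dissociation list of 40 genes took a median of 5.43%, 5.72%, 5.22% and 6.18% of a chemokine-low cell's UMIs, and 0.328% in Mog-positive cells. The chemokine-low class was not uniform in it: 113 cells (7.77%) stood under 1%, a limit chosen with the values in view. They made up 16.6% of the 572 cells without Ccl3 and Ccl4 UMIs and 2.04% of the other chemokine-low cells. Such cells were 0.412% of chemokine-high cells and 70.0% of 427 microglia-like cells below the UMI minimum. Among cells without those chemokine UMIs the share was 36.6%, 14.9%, 16.8% and 9.70% by library. The medians of the list lay close together, at 5.69% without those UMIs, 5.82% in other chemokine-low and 6.19% in chemokine-high cells. In Dp(10)2Yey replicate 2 the median without those UMIs, 6.22%, was above the 6.13% of the other chemokine-low cells. By library the chemokine-low share under 1% was 17.5%, 7.49%, 7.07% and 4.77%. WT replicate 1 stood highest, and the difference between genotype means, 5.92% ± 1.62 in Dp(10)2Yey against 12.5% ± 7.11 in WT (SD, n = 2 each), had exact two-sided permutation p = 0.333. At 1500 UMIs, Egr1 was detected in 73.0%, 83.7%, 85.9% and 87.2% of chemokine-low cells and in 16.3% of Mog-positive cells. Atf3, a stress-induced transcription factor gene, was detected in 76.2% of chemokine-low, 91.5% of chemokine-high and 1.62% of Mog-positive cells. Whether dissociation had a part in these values was not tested.

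**Figure D4:**
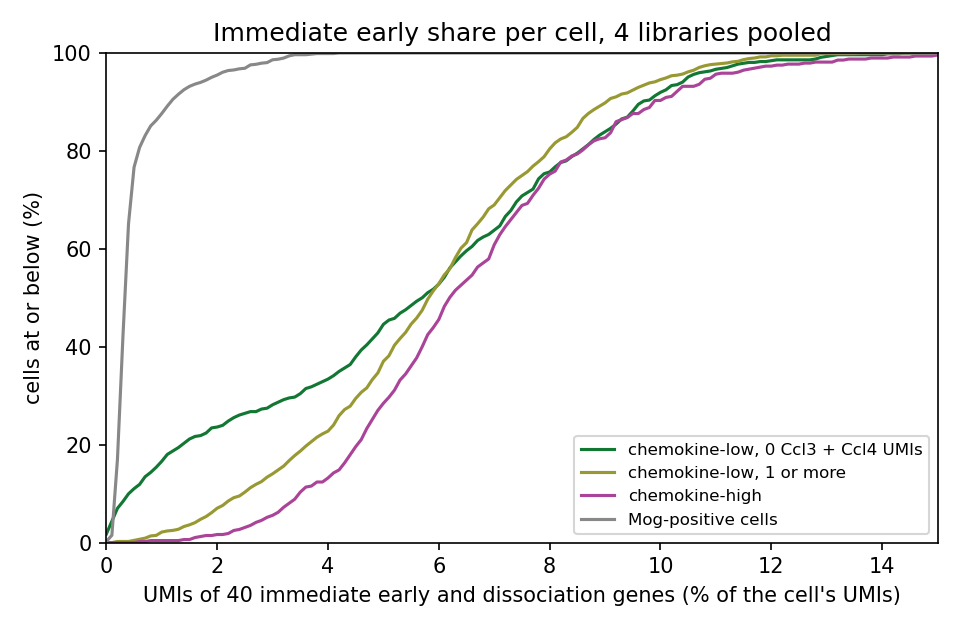
Cumulative share of cells (vertical axis, %) by the share of UMIs in 40 immediate early and dissociation genes (horizontal axis, %), all 4 libraries pooled. Lines are chemokine-low cells without Ccl3 and Ccl4 UMIs (572), the other chemokine-low cells (883), chemokine-high cells (485) and Mog-positive cells (866). At 1% the first line is already at 16.6% and the second at 2.04%, while their medians are 5.69% and 5.82%.

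Small groups of cells stood out by other programs. At least 5 UMIs of interferon-induced genes were found in 155 chemokine-low cells (10.7%) and in 1.73% of Mog-positive cells, and at least 5 UMIs summed over H2-Aa, H2-Ab1, H2-Eb1 and Cd74 in 10 cells (0.687%). In Dp(10)2Yey replicate 2 a lone cell held 632 of the library's 814 UMIs of those 4 MHC class II genes. For cell division a set of 8 genes was counted per cell (Mki67, Top2a, Cdk1, Ccnb1, Ccnb2, Birc5, Cenpf and Ube2c), a smaller set than the cell cycle list compared between genotypes. At least 2 UMIs of the 8 were found in 6 cells (0.412%), and in Dp(10)2Yey replicate 2 a lone cell held 140 of the library's 187. Mki67, a proliferation marker, was detected in 0.206% of chemokine-low and 0.462% of Mog-positive cells at 1500 UMIs, so it did not exceed the background. Apoe, the apolipoprotein gene of astrocytes and activated microglia, reached 10 UMIs in 117 cells (8.04%). At 1500 UMIs it was detected in 32.0% of chemokine-low and 83.9% of Mog-positive cells. Transcripts of the Mog-positive cells themselves and free RNA were not told apart for Apoe. Whether its level in chemokine-low cells exceeded free RNA was therefore not shown.

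The genotype labels were checked in these cells with the duplicated segment, from Prmt2 to Pdxk on chromosome 10 (76207222 to 78464975, GRCm38). It holds 62 protein-coding genes, of which 61 were in the files, 30 had 0 UMIs in chemokine-low cells and 23 passed the filter on low counts and were tested. Their sum was 995 and 995 CPM in WT and 1544 and 1476 CPM in Dp(10)2Yey over the 61 genes. Over the 23 tested genes the median log2 fold change, the log2 of the Dp(10)2Yey over the WT level, was 0.56, against 0.00 over all 8552 genes tested. A ratio of 3 copies to 2 is 0.585 on this scale. Both Dp(10)2Yey values lay above both WT values for 21 of the 23 genes, against a background of 16.1% of all genes. Of the 23, 15 had an unadjusted p under 0.05, all higher in Dp(10)2Yey, against 1.7% of all genes higher at that p. With the filter on low counts none of the segment's genes had an adjusted p under 0.01 in edgeR, and without it 1 did, Ube2g2. The labels therefore fit the counts.

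Among the segment's genes, Itgb2, which encodes the beta chain of the leukocyte integrins and of complement receptor 3, stood at 170, 179, 279 and 222 CPM (log2 fold change 0.49, SE 0.16, adjusted p = 0.9999). Cstb, the intracellular protease inhibitor cystatin B, stood at 115, 104, 186 and 160 CPM (log2 fold change 0.64). Ube2g2, a ubiquitin-conjugating enzyme gene of protein quality control, stood at 22.9, 26.3, 52.2 and 55.0 CPM (log2 fold change 1.08, SE 0.22, adjusted p = 0.317). For each of the 3, the lower Dp(10)2Yey value exceeded the higher WT value. Trpm2, a cation channel gene, and D10Jhu81e overlapped between genotypes, with log2 fold changes of 0.23 and 0.43. With Dp(10)2Yey replicate 2 left out, Trpm2 was at -0.0129 and D10Jhu81e at -0.0014, and with WT replicate 1 left out Trpm2 was at -0.0031. The remaining genes ranged from 0.35 (Pcnt) to 1.53 (Slc19a1).

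**Figure D5:**
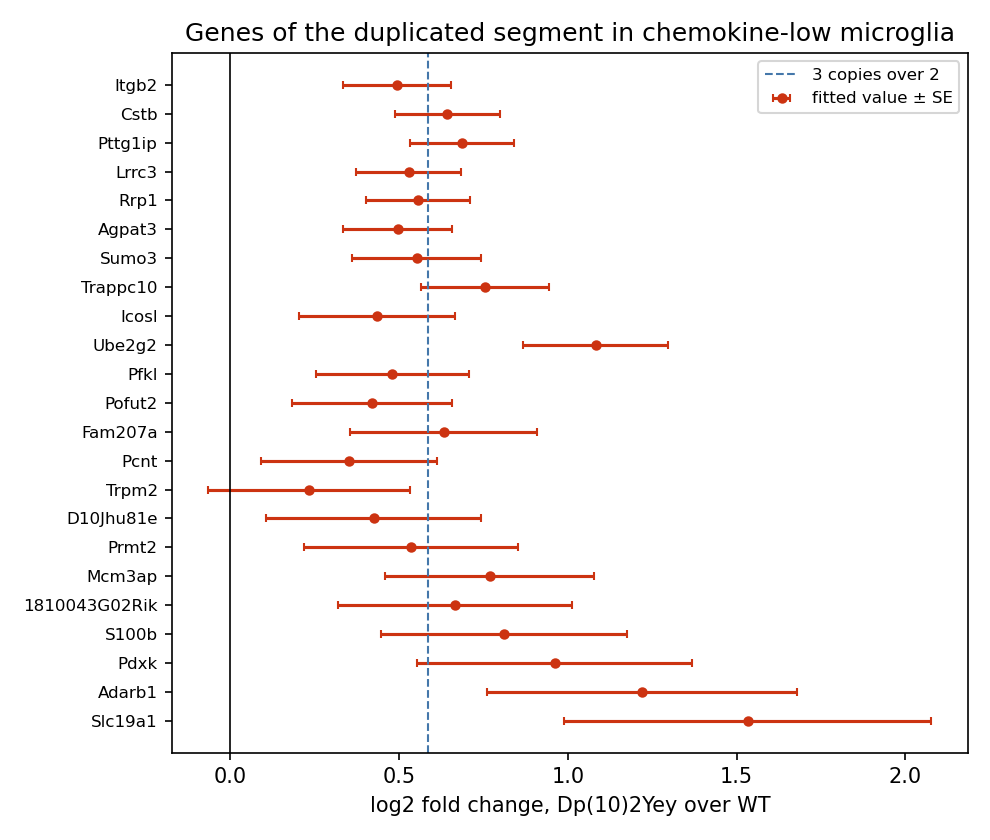
Log2 fold change (Dp(10)2Yey over WT, horizontal axis) of the 23 tested genes of the duplicated segment in chemokine-low microglia, in order of abundance. Points are fitted values, bars are 1 SE and the dashed line marks 3 copies over 2 (0.585); all 23 points lie above 0, with a median of 0.56.

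The comparison of Dp(10)2Yey with WT asks which genes change with the duplication in microglia outside the chemokine-high class. Of 8552 genes tested with edgeR, 0 had an adjusted p under 0.01 (0%), and the lowest adjusted p was 0.297. At an unadjusted p under 0.05 stood 270 genes, 145 higher (1.7% of genes tested) and 125 lower (1.46%) in Dp(10)2Yey. DESeq2 on the same sums, with 15559 genes tested and no filter on low counts, called 0 genes at an adjusted p under 0.01, 1 at an adjusted p under 0.05 and 49 at an unadjusted p under 0.05, where edgeR without that filter had 546 at an unadjusted p under 0.05. Both Dp(10)2Yey values lay above both WT values for 16.1% of genes and below both for 13.6%, and the log2 fold change was above 0 for 50% of genes. The count of 0 depends on the libraries: it was 24 without WT replicate 1, 15 without WT replicate 2, 19 without Dp(10)2Yey replicate 1 and 1 without Dp(10)2Yey replicate 2. It also depends on the model. With the replicate number as a block, which pairs mice of a preparation day if the numbers follow the days, 5 genes were called. These were Ttr, Hspa1b, Gm42418, Ifi27l2a and Lars2. Without the filter on low counts 33 genes were called. Over 2790 genes of at least 50 CPM, the log2 differences between replicates 1 and 2 correlated between the genotypes at 0.207. Whether the numbers follow the days was not tested.

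The 10 genes with at least 50 CPM, no overlap and the smallest unadjusted p were Gm42418, Lars2, Ttr, Pttg1ip, Trim47, Cstb, Hist1h4d, Trappc10, Rrad and AY036118. Pttg1ip, Cstb and Trappc10 belong to the duplicated segment. Gm42418 stood at 12527, 16744, 8949 and 6716 CPM, with a log2 fold change of -0.92 (SE 0.15, adjusted p = 0.297). It was low in both Dp(10)2Yey libraries of chemokine-high cells too, at 10287, 15390, 7916 and 6431 CPM, and of other cells, at 16614, 19764, 11558 and 7597 CPM. AY036118, another gene model over ribosomal RNA repeats, stood at 2281, 1996, 1682 and 1189 CPM. Lars2, a mitochondrial leucyl-tRNA synthetase gene, stood at 455, 718, 299 and 279 CPM (log2 fold change -1.05, SE 0.20, adjusted p = 0.317) and was likewise lower in both Dp(10)2Yey libraries of other cells, at 659, 1041, 487 and 354 CPM. The difference in Ttr rests on 1 cell of WT replicate 2. Trim47, a ubiquitin ligase gene outside the segment, stood at 66.4, 68.4, 106 and 112 CPM (log2 fold change 0.67), Rrad, a small GTPase gene, at 45.9, 51.3, 79.8 and 79.7 CPM (0.68), and the histone gene Hist1h4d at 53.1, 84.3, 39.9 and 37.6 CPM (-0.91). None of the 10 passed the adjusted threshold, but 5 of them did under alternatives. With WT replicate 1 left out, Gm42418 (log2 fold change -1.13), Lars2 (-1.35), Ttr (-6.62) and Hist1h4d (-1.17) passed it, and with Dp(10)2Yey replicate 1 left out, Gm42418 (-1.15) and AY036118 (-0.86) did. The same 5 genes passed it without the filter on low counts, Gm42418, Lars2 and Ttr with the replicate number as a block, and Gm42418 with thinned sums.

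Some genes outside that rule were chosen after their values were seen. Tyr, the tyrosinase gene of pigment cells, had 0 and 0 UMIs in WT and 12 and 19 UMIs in Dp(10)2Yey. Against the floor of 3 counts over the WT sums, 1.22 CPM, its pooled level of 7.87 CPM in Dp(10)2Yey was 6.47-fold higher. That ratio leaves out the counting error of the Dp(10)2Yey UMIs and the variation between mice, so it is no lower bound. Tyr stood at 0, 0, 8.25 and 7.85 CPM in other cells, so the difference was not limited to microglia. Ifi27l2a, an interferon-induced gene, stood at 14.5, 7.33, 50.7 and 31.9 CPM (log2 fold change 1.97, SE 0.36, adjusted p = 0.317), and 1 cell held 49 of its 66 UMIs in Dp(10)2Yey replicate 1. Cd74, the MHC class II invariant chain, was at 38.6, 26.3, 37.6 and 151 CPM, with 281 of 398 UMIs of the highest library in 1 cell.

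By function, 0 genes of the lists passed the adjusted threshold in the fit with all 4 libraries, the filter on low counts and no block. With the replicate number as a block Ttr, Hspa1b and Ifi27l2a passed, and without the filter on low counts more did, among them Cd74, Spp1, Hspa1b, Cxcl2, Ifi27l2a, Stmn1 and Fabp5. In the microglia identity list 0 of 56 tested genes had an unadjusted p under 0.05, with a median log2 fold change of -0.03 and sums of 146400, 139860, 148570 and 146540 CPM. Of 41 tested sensing receptors, 1 was higher (Itgb2, median -0.05), as it was among 10 complement genes (median -0.01), and 0 of 30 lysosomal genes passed in either direction (median -0.02). Of 18 chemokine and cytokine genes, 1 was lower (Cxcl2), with a median of -0.02. Cxcl2 stood at 0, 49.5, 8.44 and 8.35 CPM, so WT replicate 1 lay below both Dp(10)2Yey libraries. The difference rests on WT replicate 2, where 1 cell held 38 of its 81 UMIs. The chemokine and cytokine list holds Ccl3 and Ccl4, whose share the rule limits in each cell, so its values are partly set by the rule. Of 27 NF-kB feedback genes, 1 was lower (Bcl2a1a, median 0.11, but -0.02 to 0.27 without each library in turn). Of 38 immediate early genes, 3 were higher (Egr3, Dusp2 and Sgk1) and 2 lower (Klf2 and Klf4), with a median of 0.06. Egr3 stood at 67.6, 80.0, 111 and 117 CPM (log2 fold change 0.59), and Klf2, a factor that damps inflammatory transcription, at 2400, 1897, 1587 and 1656 CPM (-0.42). These counts are beside a background of 1.7% higher and 1.46% lower over all genes.

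Of 18 interferon-induced genes tested, 1 was higher (Ifi27l2a) and 4 lower (Rtp4, Ifit2, Irf9 and Ifi204), with a median log2 fold change of -0.33. Both Dp(10)2Yey values lay below both WT values for 8 of the 18, against 13.6% of all genes. Their list summed to 660, 520, 552 and 510 CPM, so the genotypes overlapped in the sum. Irf9, a component of the interferon-activated transcription complex, stood at 44.7, 36.0, 19.95 and 26.9 CPM (log2 fold change -0.72, adjusted p = 0.9999). The list was not tested as a set.

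Of 14 heat shock genes, 1 was lower (Hspa1b), with a median of -0.06 and sums of 5331, 3497, 5046 and 3760 CPM; replicate 1 of each genotype was the higher. Disease-associated microglia genes (19 tested, median -0.04), MHC class I (13, median 0.00 to 2 decimals) and glycolysis genes (16, median 0.09) had 0 genes at an unadjusted p under 0.05. Of 3 MHC class II genes, 1 was higher (Cd74, median 0.14), of 7 cell cycle genes 1 was higher (Stmn1, median 0.19, but 0.11 to 1.41 over the alternatives) and of 18 cholesterol and lipid genes 1 was higher (Fabp5, median -0.07). Ribosomal protein genes had a median of -0.09. At an unadjusted p under 0.05, 1 of 76 was lower and 0 were higher, beside 1.46% lower over all genes. Both Dp(10)2Yey values lay below both WT values for 26 of the 76, against 13.6% of all genes tested. Mitochondrial genes had a median of -0.22 and 0 genes at that unadjusted p, with sums of 27331, 31968, 30395 and 21568 CPM. Marker lists of other cells, beside these values, summed to 168, 470, 311 and 236 CPM for oligodendrocytes (6 tested, 1 lower, Mal), to 260, 301, 283 and 290 CPM for astrocytes (6 tested, 1 lower, Slc4a4), to 26.6, 36.0, 46.0 and 63.0 CPM for neurons (3 tested), to 12.1, 531, 32.2 and 15.2 CPM for ependyma and choroid plexus (Ttr) and to 30.2, 5463, 2074 and 2423 CPM for red blood cells (4 tested, 1 lower, Hbb-bt). Hbb-bt turned with the libraries, with a log2 fold change of -2.92 without WT replicate 1 and 5.32 without WT replicate 2. The part of these marker lists in the genotype values was not tested.

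Whether a genotype difference was particular to chemokine-low cells was tested with the interaction of genotype and chemokine class, with library as a block. Of 7782 genes tested, 15 had an adjusted p under 0.01 (0.193%), 3 with a more positive and 12 with a more negative genotype difference in chemokine-low cells, and 360 had an unadjusted p under 0.05 (4.63%). For 10 of the 15 genes, 1 cell held more than 50% of the UMIs of a library's class. Gm42418, Lars2, Trim47 and Rrad each had an adjusted p of 0.999 in this test, so their genotype values were not shown to differ between the classes.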

How the data were processed

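Single-cell 3′ RNA of hippocampus was measured in 4 libraries, 2 per genotype. The deposited values are UMI counts, made by the authors with Cell Ranger 3.0.2 on mm10 (GRCm38). Members and gene lists were chosen with earlier results of these data known. UMIs were summed per library and class and compared with edgeR 4.0.16 (filterByExpr, TMM, quasi-likelihood test, Benjamini-Hochberg adjustment over all genes tested, threshold 0.01) in R 4.3.3; fits were tested on simulated data. Shares and medians were compared by exact permutation over libraries. Ratios between classes added 10 CPM and were not tested. Intervals are 95% Clopper-Pearson and cover counting error only. Genes were named by fixed rules: the 12 rule genes, tested genes of the duplicated segment (GENCODE M21), the 15 most abundant, the 10 most different in each direction between classes with 1 sign in all 4 libraries and at least 50 CPM, and the 10 genotype genes described. Promoters came from RefSeq (GRCm38.p6). Some genes that these rules name are not reported. Alternatives were size factors by RLE, testing without the filter on low counts, a replicate block, thinned sums, leaving out each library, DESeq2 1.42.0, and other limits on cells (mitochondrial UMIs, doublets, 2500 UMIs, chemokine percentile per library or absent).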

Additional observations from a re-analysis of the deposited data

Results flagged for a closer look

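The genotype difference, as log2 fold change in chemokine-low minus that in chemokine-high cells, departed from 0 at an adjusted p under 0.01 (edgeR interaction) for 15 genes, of which 14 are given here. It was 14.71 for Spp1, 3.15 for Lgals3 and 0.83 for Ccl12. It was negative for Ttr (-9.74), Ptn (-7.64), Hbb-bt (-5.43), Ccl5 (-5.32), Ptgds (-3.76), Hba-a1 (-3.30), Hbb-bs (-2.91), Cxcl2 (-2.86), Hspa1b (-2.66), Sparcl1 (-2.40) and Slc1a2 (-1.60). Spp1, Ttr, Hbb-bt, Hba-a1, Cxcl2, Ptn and Ccl5 had 0 UMIs in some class sums, so their fitted values depend on the prior count and are no bounds.

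For Spp1, 1 cell held 105 of 106 UMIs in chemokine-high cells of WT replicate 2, and another 101 of 102 UMIs in chemokine-low cells of Dp(10)2Yey replicate 2. For Ccl5, 1 cell held 27 of 28 UMIs in chemokine-low cells of WT replicate 1. A lone cell held 69 of 93 Lgals3 UMIs in chemokine-high cells of WT replicate 2. Another held 59 of 95 Ptgds UMIs in chemokine-low cells of WT replicate 2. Another held 21 of 37 Ptn UMIs in chemokine-high cells of Dp(10)2Yey replicate 2. Lower shares were 38 of 81 Cxcl2 and 15 of 47 Sparcl1 UMIs in chemokine-low cells of WT replicate 2. For Slc1a2 the highest cell held 37 of 95 in chemokine-high cells of Dp(10)2Yey replicate 2. Hspa1b, where the highest cell held 17.8% of a sum, stood at 304, 61.1, 99.0 and 24.3 CPM in chemokine-low cells and at 47.5, 8.92, 108.5 and 19.8 CPM in chemokine-high cells. Ccl12, a monocyte chemokine gene, stood at 223, 298, 242.5 and 429 CPM in chemokine-low cells and at 332, 624, 231.5 and 488 CPM in chemokine-high cells, where 1 cell of WT replicate 2 held 169 of that library's 420 UMIs (40.2%). Without cells of 100 or more UMIs of globin genes, Ttr, the 4 MHC class II genes or the 8 cell division genes, an alternative chosen after seeing the data, 15 genes were called, 6 positive and 9 negative, against 3 and 12 with these cells. Of the 15 with these cells 11 remained, while Hbb-bs and Hba-a1 did not pass and Ttr and Hbb-bt were too low to be tested.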

How the results depend on the processing

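The count of genes called between genotypes, 0, was 33 without the filter on low counts (21 of these genes had also been tested with the filter), 5 with the replicate number as a block (Ttr, Hspa1b, Gm42418, Ifi27l2a and Lars2) and 1 with sums thinned to the smallest library (Gm42418). Without each library in turn it ranged from 1 to 24, where the lone library of a genotype is assumed to vary like the other. It was 0 with RLE size factors, DESeq2 (15559 genes tested, without the filter), the limits on doublets and 2500 UMIs, both other chemokine thresholds and the 2 added limits on marker UMIs. The limit of 20% mitochondrial UMIs removed 0 chemokine-low cells and could change no value between genotypes. The cause was not tested.

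The median log2 fold change of the duplicated segment, 0.56, was 0.61 with thinned sums (20 genes tested), 0.59 with the 75th percentile within each library and 0.61 with no chemokine threshold, 0.58 without cells over 2 globin UMIs, and 0.59 to 0.64 without each library in turn. The difference in the chemokine-low share, 1.32 percentage points, ranged from -0.522 to 3.16 without each library in turn. Counts of genes 2-fold apart between the chemokine classes in all libraries, 0 in either direction, were 2 higher with a pseudocount of 1 CPM, 2 lower with cells thinned to 1500 UMIs and 1 lower with the percentile within each library, alternatives chosen after seeing the data, as were leaving out cells with over 2 globin UMIs or with 100 or more UMIs of a marker set.

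Of 474 values of 30 named genes under these alternatives, 455 kept their direction and side of the threshold, 16 passed it in addition and 3 reversed; these and the counts of lists below include the limit on mitochondrial UMIs. Trpm2 ranged from -0.0129 (with -0.0031 also below 0) to 0.72 and D10Jhu81e from -0.0014 to 0.66 without each library in turn. Medians of 16 gene lists stayed within the spread between libraries in 201 of 256 values. The interferon median, -0.33, lay between -0.61 and -0.21, while medians near 0, such as those of sensing receptors, lysosome, chemokines and MHC class I, changed sign without some library. The medians of NF-kB feedback (0.11) and immediate early genes (0.06) also changed sign without some library. The smallest sum, 828426 UMIs of 211 cells, limits the precision for rare transcripts: 1 UMI there is 1.21 CPM.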
